A study of Homo sapiens with 42 samples.

Results

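The comparison described here is T4 against its vehicle DMSO in LM2 cells harvested at 72 h, 6 of the 42 libraries of the series, chosen by their labels and not by any measured value. LM2 is a line derived from the human breast cancer line MDA-MB-231 that the labels call highly metastatic to the lungs, here as 1 line grown in culture. Treated cells received 3 µM of a compound named T4 for 6 h, after which the medium was changed, and 3 libraries were made from total RNA at 72 h. Control cells were given an equal volume of DMSO for the same 6 h and were also sampled as 3 libraries at 72 h. Cells of both arms taken at 6 h, when exposure ended, and at 24 h serve as comparators, with their own DMSO libraries at each harvest. Whether replicates were separate cultures is not stated in the labels. A p-value therefore covers the scatter among these libraries alone, and that scatter may be technical.

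The libraries were made by QuantSeq REV, in which sequencing starts at the poly(A) tail, so that each read counts 1 transcript at the end where it was polyadenylated. Cleavage and polyadenylation finish nearly every messenger RNA, and many genes carry several such sites, which give long and short forms of the 3′ end. A value below is either a gene's level, the sum of its ends in CPM (counts scaled to library size with TMM factors), or the share of its reads at the more distal of its ends. A harvest long after the compound was removed asks which differences last.

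Depth was 1362653 to 1479607 counts in the T4 libraries and 1394453 to 1519353 counts in the DMSO libraries at 72 h. Of 12 markers of MDA-MB-231 cells, 11 passed the filter on low counts. The other, KRT18, was expected present but had 8 reads with T4 and 1 with DMSO. Vimentin averaged 453 CPM with T4 and 487 CPM with DMSO, ESR1 had 0 reads with T4 and 1 with DMSO, and CDH1 and PGR had 0 in both arms. KRT19, listed as a luminal marker, was nonetheless at 209 CPM with T4 and 336 CPM with DMSO. Of the 8 luminal markers, 3 passed the filter, the others being GATA3 (23 reads with T4, 27 with DMSO) and EPCAM (17 and 32). Below it, ERBB2 had 7 and 2 reads and FOXA1 had 1 and 3. The immune markers CD3E, CD3D, CD79A, MS4A1, LYZ, TYROBP and HBB had 0 reads in both arms, as had COL1A2, COL3A1, DCN, CDH5 and VWF. CD14 had 3 reads with T4 and 10 with DMSO, CSF1R 2 and 8, and PDGFRB 5 and 1. PTPRC, HBA1, LUM, PECAM1 and KDR had 1 read in 1 arm. CD68 and COL1A1 were the only immune and stromal markers past the filter, at 10.9 and 24.4 CPM with T4 and at 24.2 and 22.6 CPM with DMSO. The libraries numbered 2 stood apart in both arms. Their TMM factors were 1.40 (T4) and 1.19 (DMSO), against 0.961 to 1.07 in the other 4, and RNA other than protein-coding took 7.78% (T4) and 9.79% (DMSO) of their reads, against 12.6 to 16.2%. The part of this difference in the results was not tested, and values without both libraries are given where they change a count.

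At 72 h, 103 of 8405 genes passed an adjusted p of 0.05 (edgeR quasi-likelihood test, Benjamini-Hochberg), which is 1.23% of those tested. Of these, 45 rose (0.535%) and 58 fell (0.69%) with T4. In 102 of the 103 the T4 and DMSO libraries did not overlap in CPM, which was also true of 18.1% of all genes tested. The same test called 1126 genes at 6 h (13.4%) and 1231 at 24 h (14.6%). The median size of a log2 change was 0.42 at 6 h, 0.44 at 24 h and 0.28 at 72 h. By an unadjusted p of 0.05, 1108 genes stood out at 72 h. The dispersion was estimated over all 3 harvests. The 6 libraries of 72 h fitted alone gave 0 calls (smallest adjusted p 0.082, 849 genes at an unadjusted p of 0.05, edgeR), and 93 with replicate number as a block. The count was 47 without both libraries numbered 2, 55 without T4 library 2, 63 without T4 library 3, and 52, 67 and 54 without DMSO libraries 1, 2 and 3.

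Genes that rose with T4 at 72 h included HIST2H2AA3, S100P, MMP1, NUP62 and GPRC5B. HIST2H2AA3, a histone H2A gene, had 53.7, 49.9 and 57.0 CPM in the T4 libraries, against 4.67, 7.69 and 11.6 CPM in the DMSO libraries. All T4 libraries lay far above all DMSO libraries, and the log2 change was 2.71 ± 0.30 (SE, adjusted p = 0.00018, edgeR). A near-identical gene copy shares this sequence, so its reads could have been split between copies. S100P, a calcium-binding protein, had 21.6, 17.3 and 21.6 CPM with T4, against 3.90, 1.77 and 4.10 CPM with DMSO, with a log2 change of 2.63 ± 0.36 (adjusted p = 0.0011, edgeR). MMP1, a secreted collagenase followed as a member of the lung metastasis list, lies on chromosome 11 (102789920 to 102798160, GRCh38). It had 65.4, 70.5 and 48.0 CPM with T4, against 17.1, 17.2 and 17.1 CPM with DMSO. The DMSO libraries were nearly equal, all T4 libraries were above them, and the log2 change was 1.84 ± 0.22 (adjusted p = 0.00049, edgeR). NUP62, a nuclear pore protein, had 44.5, 33.6 and 44.5 CPM with T4, against 9.35, 11.2 and 12.3 CPM with DMSO, a log2 change of 1.88 ± 0.25 (adjusted p = 0.0011, edgeR). GPRC5B, an orphan G protein-coupled receptor, averaged 17.5 ± 2.57 CPM with T4 and 4.47 ± 0.50 CPM with DMSO (SD, n = 3 each). The intronic noncoding gene AP000864.1 had 18, 8 and 7 reads with T4 and 0 reads in all 3 DMSO libraries. Against a floor of 3 counts over the DMSO group, its level was at least 10.1-fold higher with T4. GDF15, a stress-responsive cytokine followed as a member of the p53 target list, had 164, 118 and 127 CPM with T4, against 45.2, 63.9 and 53.3 CPM with DMSO, with no overlap and a log2 change of 1.32 ± 0.20 (adjusted p = 0.0017, edgeR).

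Other genes with large rises rested on few reads. KRTAP2-3, a keratin-associated protein with close paralogs, had 8, 17 and 4 reads with T4, against 2, 1 and 1 with DMSO. SAA1, an acute phase protein with a near-identical neighbour, had 27, 20 and 20 reads with T4, against 0, 5 and 7 with DMSO. Their adjusted p values were 0.038 and 0.044 (edgeR), and each lost its call in most fits that left out 1 of the 72 h libraries or both numbered 2: up to 0.4 for KRTAP2-3 and 0.12 for SAA1. IL7R, a subunit of the interleukin 7 receptor, averaged 11.6 ± 4.70 CPM with T4 and 2.67 ± 0.31 CPM with DMSO (SD, n = 3 each), and its adjusted p of 0.018 ranged from 0.0088 to 0.13 over those fits. MAP3K7CL averaged 18.1 ± 3.42 CPM with T4 and 3.50 ± 1.67 CPM with DMSO, and DHRS2, a dehydrogenase, averaged 17.2 ± 3.43 CPM with T4 and 4.82 ± 1.10 CPM with DMSO. Their adjusted p values were 0.0072 and 0.0062 (edgeR). MAP3K7CL was at 0.055 without DMSO library 3, and DHRS2 at 0.15 without both libraries numbered 2.

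**Figure D1:**
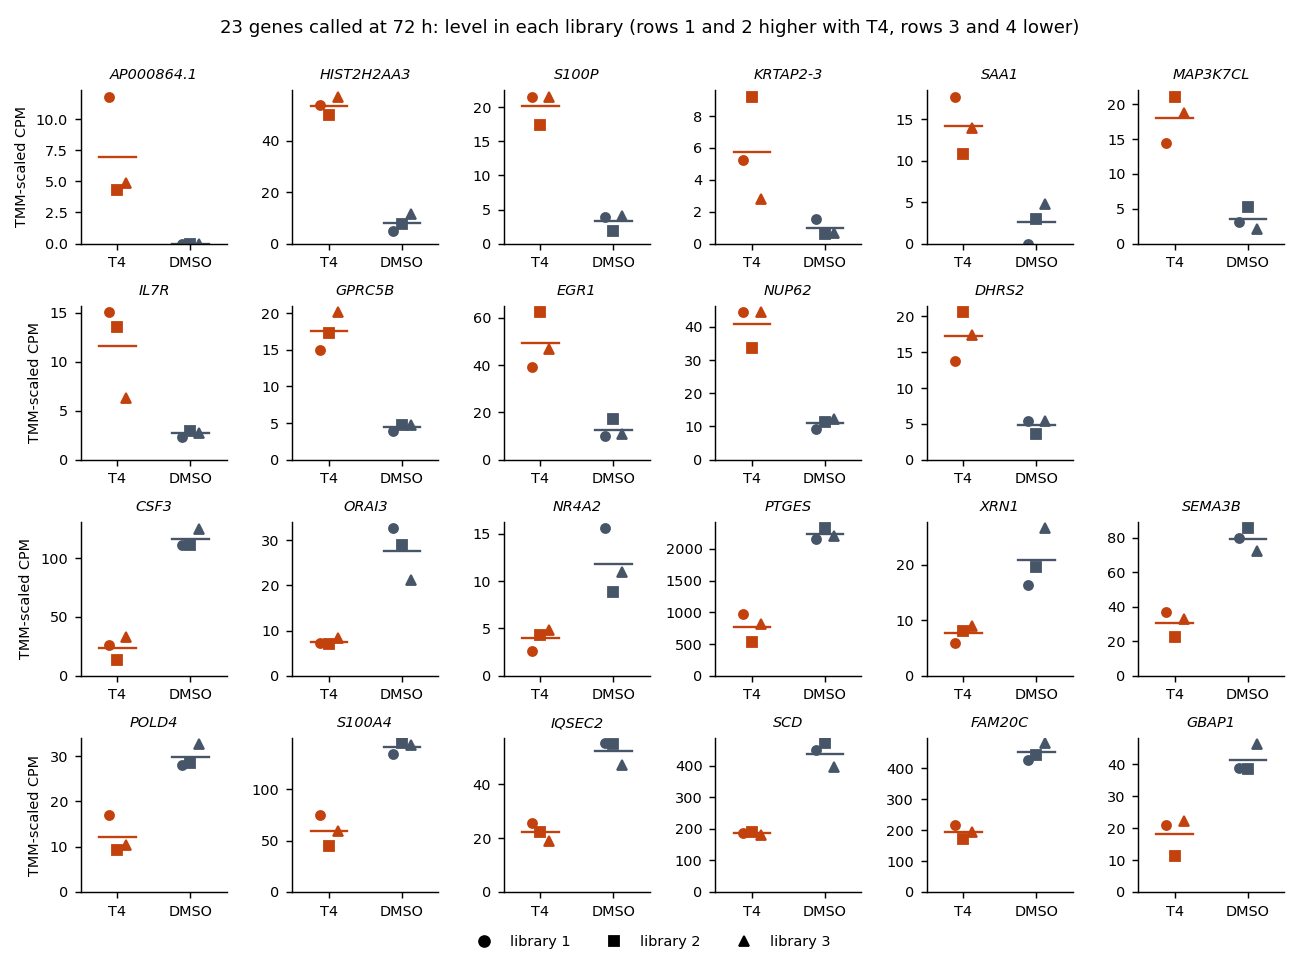
Level of 23 genes called at 72 h, in CPM with TMM factors on linear axes from 0, with T4 libraries on the left and DMSO libraries on the right of each panel. Symbols are libraries 1 to 3 and the bar is the mean of 3, and in all 23 panels the arms do not overlap.

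Among the genes that fell was PTGES, the inducible prostaglandin E synthase, on chromosome 9 (129738331 to 129753047). It had 970, 537 and 818 CPM in the T4 libraries, against 2149, 2330 and 2200 CPM in the DMSO libraries. The DMSO libraries lay close together, the T4 libraries were all under 1000 CPM, and the log2 change was -1.52 ± 0.21 (adjusted p = 0.0011, edgeR). CSF3, the granulocyte colony-stimulating factor, had 26.2, 13.0 and 32.7 CPM with T4, against 111, 111 and 125 CPM with DMSO. Its log2 change of -2.29 ± 0.25 was the largest fall among called genes whose arms did not overlap (adjusted p = 0.00018, edgeR). ORAI3, a subunit of store-operated calcium channels, had 7.20, 7.05 and 8.35 CPM with T4, against 32.7, 29 and 21.2 CPM with DMSO. FAM20C, the kinase that phosphorylates secreted proteins, averaged 195 ± 22.8 CPM with T4 and 451 ± 27.5 CPM with DMSO (SD, n = 3 each, log2 change -1.22 ± 0.16, adjusted p = 0.00093, edgeR). SEMA3B, a secreted semaphorin, averaged 30.5 ± 7.45 CPM with T4 and 79.2 ± 6.71 CPM with DMSO. IQSEC2, an exchange factor for ARF proteins, averaged 22.2 ± 3.37 CPM with T4 and 52.5 ± 4.66 CPM with DMSO. Both were at an adjusted p of 0.052 (edgeR) without both libraries numbered 2.

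Less stable were XRN1, the main cytoplasmic exoribonuclease that degrades decapped messenger RNA, POLD4, the small subunit of DNA polymerase delta, GBAP1, a pseudogene of the glucocerebrosidase gene, and the nuclear receptor NR4A2. XRN1 averaged 7.69 ± 1.62 CPM with T4 and 20.8 ± 5.26 CPM with DMSO (SD, n = 3 each), and POLD4 averaged 12.2 ± 4.19 CPM with T4 and 29.7 ± 2.63 CPM with DMSO. GBAP1 averaged 18.2 ± 5.93 CPM with T4 and 41.3 ± 4.46 CPM with DMSO. NR4A2 had 4, 8 and 7 reads with T4, against 20, 15 and 16 with DMSO. The adjusted p (edgeR) was 0.027 for XRN1 and POLD4, 0.037 for GBAP1 and 0.048 for NR4A2, and over 7 fits that left out 1 library of 72 h or both numbered 2 it reached 0.14, 0.14, 0.15 and 0.22 for XRN1, POLD4, GBAP1 and NR4A2. The call of NR4A2 was also lost with a replicate block, at an adjusted p of 0.092 (edgeR). Of 45 genes followed through these 7 fits, 18 kept their call in all of them: AP000864.1, HIST2H2AA3, S100P, GPRC5B, EGR1, NUP62, MMP1 and GDF15 among those that rose, and CSF3, ORAI3, PTGES, S100A4, SCD, FAM20C, COL6A1, DDIT4, INSIG1 and KRT81 among those that fell. Other fits ended calls among these genes. With all 18 libraries, AP000864.1, GPRC5B, EGR1, PTGES, S100A4, SCD, DDIT4 (adjusted p = 0.24, edgeR) and KRT81 (0.27) lost theirs. With library totals in place of TMM, COL6A1 (adjusted p = 0.086, edgeR), INSIG1 (0.091) and KRT81 (0.11) did. The rest kept their calls in these fits, and the 72 h libraries fitted alone kept none. Those libraries without both numbered 2 did not call AP000864.1, GPRC5B and KRT81 (adjusted p = 0.084, edgeR). With the same transcript version only, S100P, EGR1, ORAI3, SCD and FAM20C were not among the calls, and MMP1, COL6A1 and DDIT4 had no value. DESeq2 did not call AP000864.1 and S100P. A gene not called in these fits may have lacked an adjusted p there.

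YAP and its partner TAZ are transcriptional coactivators that respond to cell shape and matrix stiffness, bind DNA through TEAD factors, and drive genes for secreted matricellular proteins. Of 11 tested genes of this list, 4 rose and 0 fell at 72 h, against 0.535% and 0.69% of all genes tested, and the median log2 change was 0.81, against -0.01 over all genes tested. CTGF, a secreted matricellular protein, had 143, 226 and 153 CPM with T4, against 51.4, 93.5 and 73.7 CPM with DMSO (log2 change 1.25 ± 0.23, adjusted p = 0.0097, edgeR). ANKRD1, a nuclear ankyrin repeat protein, had 477, 289.5 and 507 CPM with T4, against 164, 190.5 and 244 CPM with DMSO (log2 change 1.09 ± 0.22, adjusted p = 0.018, edgeR). For both genes all T4 libraries were above all DMSO libraries. TGFB2, a growth factor of the TGF-beta family, averaged 173 ± 16.6 CPM with T4 and 95.7 ± 10.5 CPM with DMSO (SD, n = 3 each, log2 change 0.85 ± 0.18, adjusted p = 0.027, edgeR).

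The other 7 members did not pass; those given next, other than AXL, were chosen after their values were seen. F3, tissue factor, had a log2 change of 0.90 (adjusted p = 0.068, edgeR) and passed with a replicate block within each harvest (0.04), which made 5 members that rose. Without the block, AMOTL2 had a log2 change of 0.81 (0.29) and CYR61 of 0.29 (0.68), while the receptor kinase AXL had -0.11 (0.76). At 6 h, 1 member rose and 5 fell, against 2.64% and 10.8% of all genes, with a median log2 change of -0.61, and at 24 h 0 rose and 2 fell, with a median of -0.02. The effect at 72 h differed from that at 6 h by 2.89 (log2) for ANKRD1 and 1.5 for TGFB2 (adjusted p = 6.3e-05 and 0.0025, edgeR contrast of effects), and CTGF, which had also risen at 6 h by 1.22, did not pass (0.03, adjusted p = 0.97). Without both libraries numbered 2, 2 of 11 members rose and the median was 0.34. CTGF was at an adjusted p of 0.069 without DMSO library 1 and 0.067 without DMSO library 3, and ANKRD1 at 0.061 and 0.059 without DMSO libraries 1 and 2 and at 0.071 and 0.075 without T4 libraries 1 and 3. TGFB2 kept its call in 1 of the 7 fits.

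Windows from 250 bases before to 50 after the start were available from RefSeq for 7 of these 11 genes. Of the 7, 6 hold CATTCC, the core of the TEAD motif, on either strand in at least 1 window. Of 35116 such windows of all genes, counted window by window and not by gene, 14% hold it. AMOTL2, AXL and LATS2, which did not pass at 72 h, are among the 6, so a match was not confined to called genes. F3, which did not pass either, has a window without a match. The members were listed as YAP targets, and whether a match goes with a call was not tested. Windows of 3 genes that rose are shown for the number and spacing of the motif, which capitals mark, with the reverse complement in capitals where it lies on the other strand. They are CTGF, named CCN2 in RefSeq (chr6:131951323-131951622, minus strand), ANKRD1 (chr10:90921038-90921337, minus strand) and TGFB2 (chr1:218345086-218345385, plus strand), all on GRCh38.p14 and written along the gene.
CTGF: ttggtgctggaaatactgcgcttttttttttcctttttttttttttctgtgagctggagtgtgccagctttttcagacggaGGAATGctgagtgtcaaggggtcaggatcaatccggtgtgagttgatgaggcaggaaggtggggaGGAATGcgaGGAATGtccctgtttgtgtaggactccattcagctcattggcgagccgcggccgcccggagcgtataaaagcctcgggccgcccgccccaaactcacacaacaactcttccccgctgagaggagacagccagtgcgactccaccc
ANKRD1: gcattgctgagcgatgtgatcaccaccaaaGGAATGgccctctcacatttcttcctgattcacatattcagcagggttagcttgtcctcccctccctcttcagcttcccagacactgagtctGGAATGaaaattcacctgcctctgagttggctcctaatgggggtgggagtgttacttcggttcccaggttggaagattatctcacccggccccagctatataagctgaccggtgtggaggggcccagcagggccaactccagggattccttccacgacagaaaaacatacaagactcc
TGFB2: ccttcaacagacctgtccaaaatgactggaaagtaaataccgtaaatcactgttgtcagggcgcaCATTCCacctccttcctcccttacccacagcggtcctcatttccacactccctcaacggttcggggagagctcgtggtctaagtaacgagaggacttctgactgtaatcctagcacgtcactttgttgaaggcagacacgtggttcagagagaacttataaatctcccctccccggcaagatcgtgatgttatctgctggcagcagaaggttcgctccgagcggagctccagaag
CTGF holds 3 matches, ANKRD1 2 and TGFB2 1. A match describes these letters and not the binding of a factor.

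Immediate early genes are transcribed within minutes of a growth or stress signal, without new protein. Of 13 tested, 2 rose and 0 fell at 72 h (median log2 change 0.45), while 7 rose and 2 fell at 6 h and 3 rose and 0 fell at 24 h. Of all genes tested, 0.535% rose and 0.69% fell at 72 h, 2.64% and 10.8% at 6 h, and 5.62% and 9.03% at 24 h. EGR1, a zinc finger transcription factor on chromosome 5 (138465490 to 138469315), had 39.3, 62.3 and 46.6 CPM with T4, against 10.1, 17.2 and 10.9 CPM with DMSO. All T4 libraries were above all DMSO libraries, and the log2 change was 1.93 ± 0.30 (adjusted p = 0.0032, edgeR). EGR1 had also risen at the other harvests, by a log2 of 1.67 at 6 h and 2.15 at 24 h, and the differences between those effects and that at 72 h did not pass (adjusted p = 0.77 against 6 h and 0.82 against 24 h, edgeR). JUNB, a subunit of the AP-1 factor, averaged 51.2 ± 9.84 CPM with T4 and 25.2 ± 5.44 CPM with DMSO (SD, n = 3 each), a log2 change of 1.01 at 72 h (adjusted p = 0.037, edgeR), against 2.75 at 6 h. FOS, its usual partner, named after its values were seen, had a log2 change of 1.68 ± 0.84 that did not pass (adjusted p = 0.41), and IER2 and IER3 had 0.32 and -0.14. Without both libraries numbered 2, EGR1 was the 1 member that rose, and JUNB was at an adjusted p of 0.086; JUNB kept its call in 2 of the 7 fits (0.038 to 0.19).

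The EGR1 window (chr5:138465229-138465528, plus strand, GRCh38.p14, RefSeq) is shown because of its CArG box, the site of serum response factor. EGR1 was the 1 of 10 genes of this list with a window available to hold the box, which 1.29% of all windows hold. Capitals mark its 2 matches, searched as a palindrome that reads the same on both strands.
EGR1: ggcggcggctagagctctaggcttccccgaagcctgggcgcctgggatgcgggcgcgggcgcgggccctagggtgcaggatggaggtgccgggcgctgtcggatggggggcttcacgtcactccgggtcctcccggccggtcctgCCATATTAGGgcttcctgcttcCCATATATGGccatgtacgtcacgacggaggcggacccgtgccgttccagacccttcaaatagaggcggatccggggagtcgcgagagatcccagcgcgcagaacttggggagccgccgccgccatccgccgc
The box was searched by its consensus alone, and the windows of the other 9 genes are not shown.

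Several genes of transcription control rose beside them and were chosen here after their values were seen. HEXIM1, which inhibits the elongation kinase P-TEFb, had 41.2, 43.4 and 32.0 CPM with T4, against 17.9, 14.2 and 19.1 CPM with DMSO (log2 change 1.20 ± 0.23, adjusted p = 0.011, edgeR). CDK12, a kinase of RNA polymerase II, had 73.9, 83.5 and 59.8 CPM with T4, against 38.2, 36.7 and 39.6 CPM with DMSO (log2 change 0.93 ± 0.16, adjusted p = 0.0048, edgeR). POLR2A, the largest subunit of that polymerase, had 466, 633 and 505 CPM with T4, against 289, 340 and 307 CPM with DMSO (log2 change 0.78 ± 0.17, adjusted p = 0.028, edgeR). In all 3 genes the arms were separate. CDK12 had fallen by 2.02 on the log2 scale at 6 h and risen by 1.11 at 24 h, and HEXIM1 had risen by 1.17 at 6 h. Without both libraries numbered 2, HEXIM1, CDK12 and POLR2A were at adjusted p values of 0.15, 0.089 and 0.068 (edgeR).

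INSIG1, SCD, FADS1 and FADS2, genes of sterol and fatty acid supply, fell with T4 at 72 h. INSIG1, the endoplasmic reticulum protein that retains the SREBP complex when sterols are plentiful, had 63.5, 79.7 and 61.9 CPM with T4, against 125, 176 and 124 CPM with DMSO (log2 change -1.05 ± 0.17, adjusted p = 0.0048, edgeR). SCD, which makes monounsaturated fatty acids, had 186.5, 190.3 and 182 CPM with T4, against 448, 472 and 395 CPM with DMSO. Its T4 libraries were nearly equal and all below the DMSO libraries (log2 change -1.24 ± 0.17, adjusted p = 0.0015, edgeR). The desaturases of long polyunsaturated fatty acids, FADS1 and FADS2, fell by 1.06 and 0.79 on the log2 scale (adjusted p = 0.0082 and 0.018, edgeR); SCD was named by the size of its fall and these were picked after their values were seen.

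Of 17 tested genes of cholesterol synthesis and uptake, 2 fell, INSIG1 among them, 0 rose and 15 did not pass, with a median log2 change of -0.19. Of all genes tested, 0.69% fell and 0.535% rose. With a replicate block 1 fell, and 1 fell without both libraries numbered 2. Enzymes of the pathway were among the 15: HMGCS1 had a log2 change of -0.10, SQLE -0.06 and FDPS -0.50 (adjusted p = 0.58 to 0.93, edgeR), of which HMGCS1 and SQLE were named after their values were seen. INSIG1 had also fallen at 6 h, by 0.88, and had a log2 change of 0.07 at 24 h. The sterol motif CACCCCAC was in 0 of the RefSeq windows of INSIG1, SCD, FADS1 and FADS2, and in 2.79% of all windows, which says only that these letters are not there.

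The lists of inflammation and of the metastatic state of the line are read against the 0.535% of all genes that rose and the 0.69% that fell at 72 h. Of 7 tested NF-kB genes, CSF3 and NFKBIA fell and 0 rose. NFKBIA, the inhibitor that holds NF-kB in the cytoplasm, had 207, 210 and 204 CPM with T4, against 356, 364 and 356 CPM with DMSO, 2 tight and separate groups (log2 change -0.79 ± 0.17, adjusted p = 0.027, edgeR, at 0.045 to 0.081 over the 7 fits without 72 h libraries). IL11, which had fallen at 24 h by 2.26 on the log2 scale, had a log2 change of -0.32 at 72 h (adjusted p = 0.41). Of 12 tested genes of the lung metastasis signature, MMP1 and ID3 rose and COL6A1 and KRT81 fell. ID3, an inhibitor of basic helix-loop-helix factors, averaged 27.9 ± 8.05 CPM with T4 and 11.3 ± 3.95 CPM with DMSO (SD, n = 3 each, adjusted p = 0.027, edgeR, kept in 2 of the 7 fits without 72 h libraries, up to 0.17 without DMSO library 3). COL6A1, a chain of collagen VI, had 71.3, 69.4 and 61.2 CPM with T4, against 121, 140 and 132 CPM with DMSO (log2 change -0.96 ± 0.16, adjusted p = 0.0048, edgeR). EREG, an EGFR ligand on the same list that had risen by 4.57 at 6 h and 4.12 at 24 h, had a log2 change of 0.66 at 72 h and did not pass (adjusted p = 0.43).

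S100A4, S100A6, KRT81 and KRT19 fell, while S100P rose as given above. S100A4, a motility protein also counted among the markers of this line, had 75.2, 45.0 and 59.1 CPM with T4, against 135, 145 and 143 CPM with DMSO (log2 change -1.24 ± 0.21, adjusted p = 0.0048, edgeR). S100A6, picked after its values were seen, averaged 3046 ± 600 CPM with T4 and 5570 ± 437 CPM with DMSO (SD, n = 3 each, log2 change -0.87, adjusted p = 0.011, edgeR). LGALS1, galectin 1, averaged 459 ± 41.1 CPM with T4 and 761 ± 68.6 CPM with DMSO (adjusted p = 0.019, edgeR, at 0.02 to 0.071 over the fits without 72 h libraries). In the epithelial list, KRT81 and KRT19 fell, 0 of 11 rose and 9 did not pass, against 0.69% of all genes that fell and 0.535% that rose. KRT81 averaged 415 ± 38.9 CPM with T4 and 710 ± 52.4 CPM with DMSO (adjusted p = 0.01, edgeR), and KRT19 averaged 209 ± 11.2 CPM with T4 and 336 ± 32.3 CPM with DMSO (adjusted p = 0.049, at 0.07 to 0.15 over those fits). ITGB4, an integrin of epithelial adhesion, had a log2 change of -0.72 at 72 h (adjusted p = 0.018, edgeR, kept in 3 of the 7 fits and 0.13 without both libraries numbered 2), after a rise of 1.02 at 24 h. As these are bulk samples, fewer cells of a kind and less RNA per cell cannot be told apart.

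The series is about mRNA processing, and its factors were tested as lists, against the 0.535% of all genes that rose and the 0.69% that fell at 72 h, and the 2.64% and 10.8% at 6 h. Of all genes tested, 49.3% had a log2 change above 0 at 72 h. A count of 0 at 72 h in a list of this size is near the share over all genes. HNRNPC, an hnRNP that binds nascent RNA, had 366, 550 and 412 CPM with T4, against 397, 478 and 399 CPM with DMSO, and the arms overlapped (log2 change 0.06, adjusted p = 0.89, edgeR). Of 23 tested hnRNP genes, HNRNPU and SYNCRIP rose and 0 fell, and 19 of the 23 had a log2 change above 0 (median 0.24). HNRNPU, a nuclear scaffold protein, averaged 74.0 ± 6.48 CPM with T4 and 40.9 ± 7.09 CPM with DMSO, and SYNCRIP averaged 79 ± 9 CPM with T4 and 47.6 ± 9.38 CPM with DMSO (SD, n = 3 each, adjusted p = 0.019 and 0.037, edgeR). HNRNPU kept its call in 3 and SYNCRIP in 2 of the 7 fits without 72 h libraries, and they were at adjusted p values of 0.082 and 0.06 without both libraries numbered 2. With a replicate block, 4 hnRNP genes rose. Of 24 cleavage and polyadenylation factors, 0 passed in either direction at 72 h (median log2 change 0.28, 20 of 24 above 0), after 0 rose and 6 fell at 6 h. Of 17 SR protein genes, 0 passed at 72 h, after 4 rose and 2 fell at 6 h.

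For lists of growth and stress genes the shares over all genes were 1.23% called at 72 h, 2.64% higher and 10.8% lower at 6 h, and 5.62% higher and 9.03% lower at 24 h. Counts of 0 or 1 at 72 h in lists of this size are near that share and are not read as results about the lists. Of 19 DNA replication genes 0 passed (median log2 change -0.03), while at 6 h 0 rose and 5 fell, and at 24 h 1 rose and 6 fell. Of 21 mitosis genes 0 passed (median -0.03), while 0 rose and 7 fell at 6 h and 0 rose and 8 fell at 24 h. DDIT4, an inhibitor of mTORC1 signalling, was the 1 called gene among 22 of the integrated stress and unfolded protein response, with 225, 272 and 285 CPM with T4, against 486, 645 and 599 CPM with DMSO (log2 change -1.15 ± 0.19, adjusted p = 0.0048, edgeR). MT1E, a metallothionein, was the 1 called gene of 15 of the oxidative and metal response, with a log2 change of -0.66 (adjusted p = 0.037, edgeR, up to 0.14 over the fits without 72 h libraries), and MT1X passed beside it with a replicate block within each harvest (0.043). GDF15 was the 1 called gene among 12 p53 targets, whose median was -0.24. OIP5-AS1, a nuclear and cytoplasmic noncoding RNA, fell among 4 nuclear-retained RNAs (log2 change -0.97, adjusted p = 0.019, edgeR, kept in 3 of the 7 fits and 0.12 without both libraries numbered 2). In the heat shock, interferon-stimulated, glycolysis and hypoxia, lysosome, apoptosis, EGFR ligand, mitochondrially encoded, cytosolic ribosomal protein, snoRNA host and polyadenylated histone lists, 0 genes passed, and with that block MT-ND6 did (adjusted p = 0.045, edgeR).

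**Figure D2:**
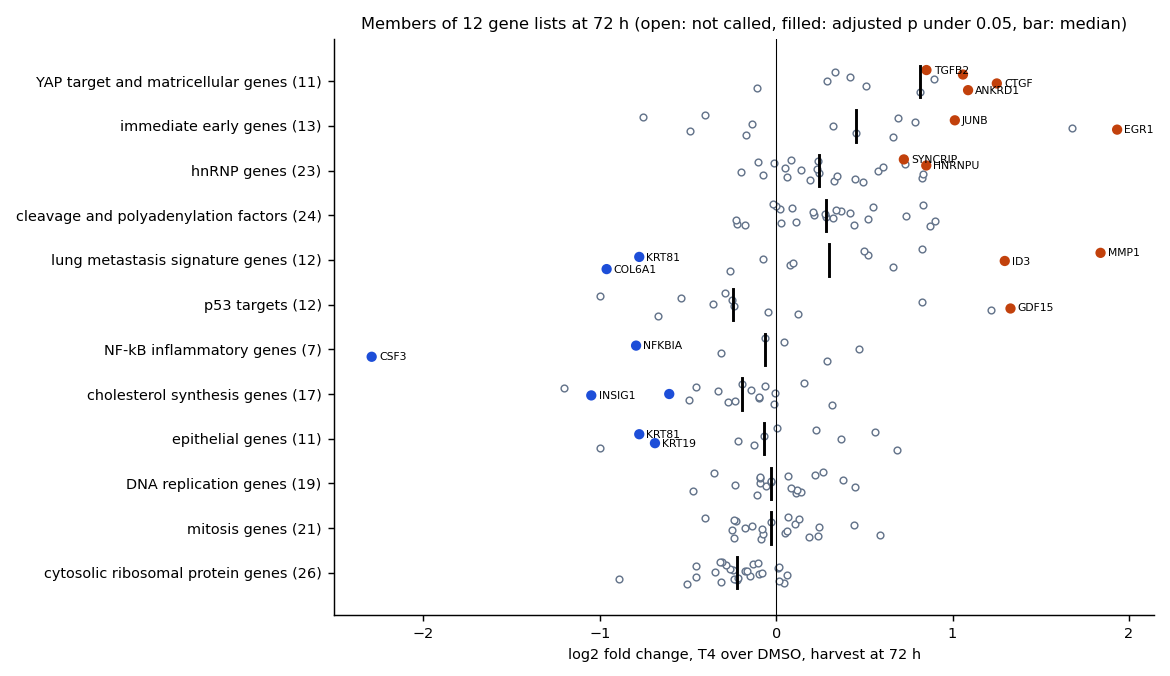
Log2 fold change of T4 over DMSO at 72 h for each tested member of 12 gene lists, with the number of members in brackets. Filled points passed an adjusted p of 0.05, and the bars are list medians, which run from -0.24 for p53 targets to 0.81 for YAP target and matricellular genes.

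Most of the genes called at 6 h or 24 h were not called at 72 h. Across the 8405 genes, the log2 changes at 72 h and at 6 h had a Pearson correlation of 0.013 (Spearman -0.089). Those at 72 h and 24 h had 0.045 (Spearman -0.035), and those at 24 h and 6 h 0.156 (Spearman 0.211). This is a description over genes, which are not independent replicates. With 1.23% of genes called at 72 h, a correlation near 0 over all genes does not describe the called ones. Each harvest has its own T4 and DMSO libraries. Of the 222 genes that had risen at 6 h (2.64% of all tested), 10 rose (4.5%) and 4 fell (1.8%) at 72 h. They made up 22.2% of the genes that rose at 72 h and 6.9% of those that fell. The median log2 change of the 222 was 1.19 at 6 h and 0.22 at 72 h. Of the 904 that had fallen at 6 h (10.8%), 7 rose (15.6% of the rises) and 12 fell (20.7% of the falls) at 72 h. The median log2 change of the 904 was -1.60 at 6 h and 0.03 at 72 h. Of the 472 that had risen at 24 h (5.62%), 13 rose (28.9% of the rises) and 2 fell (3.45% of the falls) at 72 h. Their median at 72 h was -0.02, and it took either sign when 1 library was left out (-0.28 without DMSO library 2 of 72 h, 0.20 without T4 library 1 or DMSO library 1 of 24 h). Of the 759 that had fallen at 24 h (9.03%), 1 rose (2.22% of the rises) and 19 fell (32.8% of the falls) at 72 h. The median of the 759 at 72 h was -0.11.

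**Figure D3:**
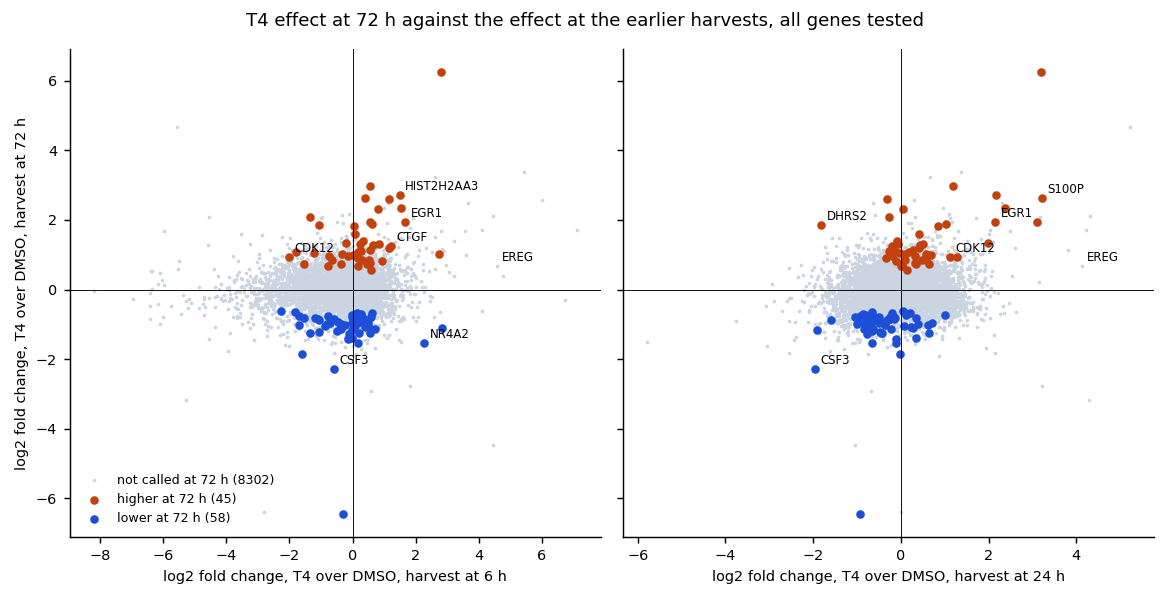
Log2 fold change of T4 over DMSO at 72 h against that at 6 h (left) and at 24 h (right), 1 point a gene, for the 8405 genes tested. The 45 genes that rose and the 58 that fell at 72 h are coloured, and most of the genes far from 0 on the horizontal axes lie near 0 on the vertical one.

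The 8 genes with the largest rises at 6 h, by a rule on level and separation of the 6 h libraries, had risen by 2.45 to 4.57 on the log2 scale. They were EREG, AL355075.4, MNX1, RASD1, JUNB, CSNK1E, IER5L and FLJ37453. At 72 h JUNB rose and RASD1 fell, and the other 6 had log2 changes of -0.78 to 1.12 (adjusted p from 0.06 to 0.77, edgeR). RASD1, a Ras-related G protein, was thus called in opposite directions, with 33.4, 48.3 and 38.3 CPM with T4, against 77.9, 110 and 68.3 CPM with DMSO at 72 h (log2 change -1.09, adjusted p = 0.035, edgeR, and 0.06 without both libraries numbered 2). The 8 largest falls at 6 h, by the same rule, were S100PBP, PPP1R10, SH3PXD2B, ZNF142, NDE1, C12orf65, RUNX1 and ST3GAL1, with log2 changes of -6.94 to -4.16. At 72 h their log2 changes were -0.51 to 0.39, and 0 of the 8 passed (adjusted p from 0.53 to 0.99, edgeR). RUNX1, a transcription factor of the Runt family, averaged 28.7 ± 2.96 CPM with T4 and 28.3 ± 5.84 CPM with DMSO at 72 h (SD, n = 3 each). Of the 5 largest rises at 24 h, EREG, GPRC5B, TRAC, S100A3 and HIST2H2AA3, GPRC5B and HIST2H2AA3 rose at 72 h, while TRAC and S100A3 had log2 changes of -0.40 and -0.47. Of the 5 largest falls at 24 h, AC006453.2, AC115618.3, CUEDC2, IL11 and GLIPR1, 0 passed at 72 h (log2 changes of -0.92 to 0.42).

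By the 3 calls together, AP000864.1, EGR1 and HIST2H2AA3 rose at 6, 24 and 72 h, and CCDC9B, MXD3, NBR1 and SLC20A1 fell at all 3. At 24 h and 72 h but not at 6 h, 8 genes rose, among them GDF15, GPRC5B, MMP1, NUP62 and S100P, and 15 fell, among them CSF3, KRT81, LGALS1 and FADS1. At 6 h and 72 h but not at 24 h, 7 rose, among them CTGF, JUNB and HEXIM1, and 8 fell, among them INSIG1, ORAI3 and FAM20C. Opposite calls at 6 h and 72 h were made for AEN, ANKRD1, LPAR1, TGFB2, C6orf132 and CDK12, among others, lower at 6 h and higher at 72 h, and for DDIT4, MT1E, NR4A2 and RASD1, higher at 6 h and lower at 72 h. At 72 h alone, 19 rose, among them IL7R and ID3, and 25 fell, among them COL6A1, NFKBIA and IQSEC2. A gene outside the threshold at 1 harvest is not shown to differ there. The difference of effects itself was called for 763 genes between 72 h and 6 h (9.08%), higher at 72 h in 637 (7.58%) and lower in 126 (1.5%). It was called for 310 between 72 h and 24 h (3.69%), higher at 72 h in 213 (2.53%) and lower in 97 (1.15%). Leaving out T4 library 1 or 2 of 6 h gave 301 and 373 for the first, and leaving out 1 library gave 77 (without DMSO library 1 of 24 h) to 979 (without DMSO library 2 of 72 h) for the second.

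**Figure D4:**
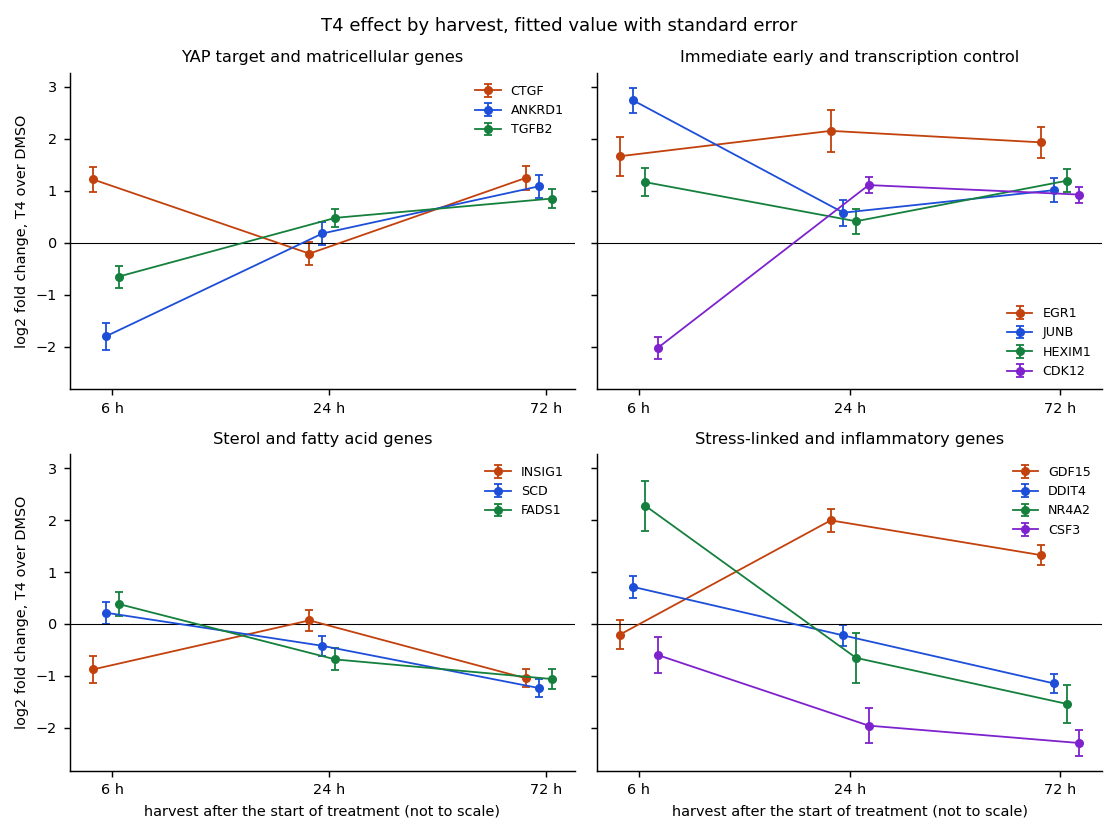
Fitted log2 fold change of T4 over DMSO at 6, 24 and 72 h with its standard error, for 14 genes in 4 groups, with harvests evenly spaced. ANKRD1, TGFB2 and CDK12 are below 0 at 6 h and above 0 at 72 h, EGR1 is near 2 throughout, and NR4A2 and DDIT4 go the other way.

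The use of transcript ends was compared over 656 genes with 2 ends of at least 10 reads on average. At 72 h, 0 genes passed (0%, smallest adjusted p 0.27, edgeR site by group interaction), while 43 had an unadjusted p under 0.05, 16 toward the distal and 27 toward the proximal end. The same test called 35 genes at 6 h (5.34%) and 70 at 24 h (10.7%). The median share of reads at the distal end was 55.0 ± 2.63% in the T4 libraries and 55.1 ± 2.25% in the DMSO libraries (SD, n = 3 each, exact two-sided permutation p = 1, the smallest possible being 0.1).

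AHNAK, a very large scaffold protein, had the smallest p. Its distal end took 87.0, 93.5 and 84.9% of the reads with T4, against 95.6, 96.1 and 97.9% with DMSO, from 249 to 384 reads a library. All T4 libraries were below all DMSO libraries (log2 ratio -1.80 ± 0.44, adjusted p = 0.27, edgeR), and the gene was called without T4 library 2 (adjusted p = 0.0085) and without both libraries numbered 2 (0.014). It had been called at 6 h and 24 h, when the distal share was 21.9 ± 1.5% with T4 and 95.8 ± 3.12% with DMSO at 6 h (SD, n = 2 and 3), and 75.9 ± 6.51% with T4 and 95.5 ± 0.88% with DMSO at 24 h (SD, n = 3 each). RNF145, a membrane ubiquitin ligase also called at 6 h and 24 h, had distal shares of 82.8, 78.7 and 78.6% with T4, against 86.5, 88.9 and 85.9% with DMSO at 72 h, again without overlap (log2 ratio -0.76 ± 0.26, adjusted p = 0.64, edgeR). At 6 h its share was 25.5 ± 3.30% with T4 and 84.8 ± 0.94% with DMSO, and at 24 h 59.9 ± 4.67% with T4 and 87.7 ± 2.02% with DMSO. EIF4A2, a helicase of translation initiation, had gone to 71.0 ± 3.34% with T4 at 6 h, against 98 ± 1.73% with DMSO, and was at 95.9 ± 1.52% with T4 and 96.0 ± 1.07% with DMSO at 72 h.

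Toward the distal end, PHLDA1, a pleckstrin homology-like protein, had 8.91, 7.96 and 6.67% of reads there with T4, against 3.58, 4.03 and 3.18% with DMSO (log2 ratio 1.18 ± 0.31, adjusted p = 0.27, edgeR), and it had been called at 6 h and at 24 h in the same direction. MPP5 and ZFAND3 had 22.9 ± 4.68% and 59.1 ± 1.11% with T4, against 9.56 ± 2.92% and 36.1 ± 14.7% with DMSO. Toward the proximal end, ARIH2, a ubiquitin ligase, had 49.5, 47.5 and 50% distal reads with T4, against 75, 64.8 and 63.3% with DMSO, and ZDHHC9, a palmitoyl transferase, 8.26, 10.9 and 10.8% with T4, against 20.7, 21.3 and 18.2% with DMSO. The arms of MPP5, ZFAND3, ARIH2 and ZDHHC9 did not overlap, and 0 of them passed (adjusted p = 0.29 to 0.67, edgeR). ARIH2 and ZDHHC9 had been called at 24 h toward the same end. Of the 35 genes called at 6 h, 27 had shifted toward the proximal end by a median log2 ratio of -2.28, and their median at 72 h was -0.16. The 8 that had shifted toward the distal end at 6 h had a median of 2.40 at 6 h and -0.68 at 72 h. For the 44 that had shifted toward the proximal end at 24 h the median was -1.39 at 24 h and 0.17 at 72 h, for the 26 toward the distal end it was 1.71 at 24 h and -0.31 at 72 h, and over all 656 genes it was 0.04 at 72 h.

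**Figure D5:**
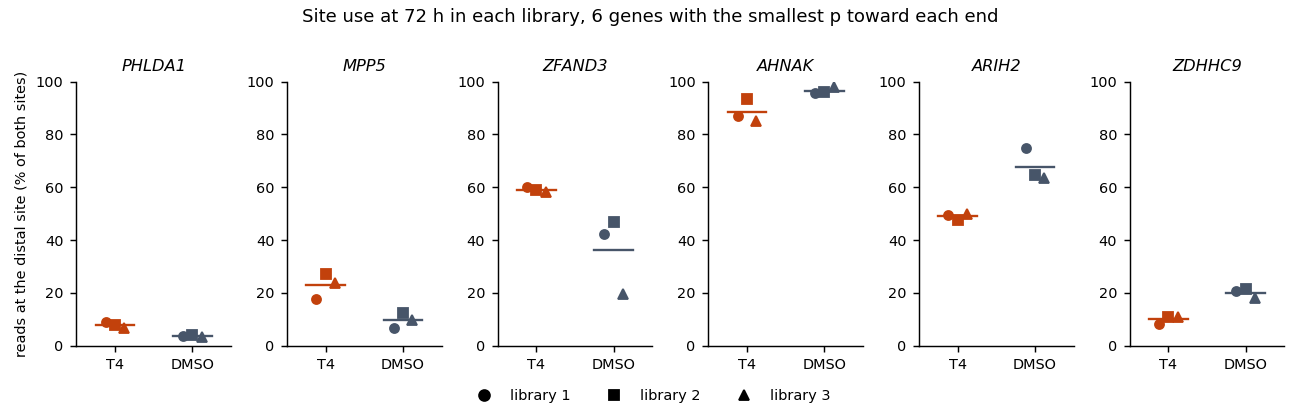
Share of reads at the distal of 2 ends, in percent of both, in each 72 h library for the 3 genes with the smallest p toward each end, T4 on the left and DMSO on the right. Symbols are libraries 1 to 3 and bars are means, and 0 of these 6 genes passed the adjusted threshold although the arms do not overlap.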

How the data were processed

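The deposited table gives, per end of a transcript or per position, the authors' expected counts, with Salmon 0.14.1 and hg38 named per the submitters' processing notes. Transcript ends were matched to GENCODE 29 (66115 of 71604), each position went to the gene of the transcript end it is listed with, and entries were summed per gene. No position coordinates are printed, since their build was not settled. Entries left out held 1.67 to 4.23% of reads. Counts were rounded and tested with edgeR 4.0.16 (quasi-likelihood, TMM, filterByExpr, Benjamini-Hochberg) in R 4.3.3 on 17 libraries of T4 and DMSO at 3 harvests, 1 library (6 h T4, number 3) being left out by the definition of the comparison. Of the deposited values, zeros included, 98.3 to 98.5% were whole, which does not give the part of reads split between entries. Values that were not whole held 100% of the reads of GBAP1, 66.2% of OIP5-AS1 and 11.5% of POLD4. For the other called genes named here this share was 0%. The tests were also run on simulated counts, with the same spread for all genes and no deviation shared between libraries. That setting differs from the 72 h libraries, so it does not vouch for their counts of calls. At 72 h the T4 and DMSO libraries of 1 number deviated together (correlations 0.26, 0.62 and 0.13). However, T4 library 3 correlated more with DMSO library 1 (0.41), and T4 library 1 with DMSO library 3 at 0.165. At 6 h and 24 h same-numbered libraries had -0.083 to 0.006. Deviations were taken from the mean of each group, and the 72 h libraries numbered 2 stood apart in both arms. These correlations therefore cannot show whether the numbers pair the libraries. The main fit, used wherever no block is named, had no replicate block, and fits with the block are given as alternatives. The genes named first, other than MMP1 and GDF15, are from the 12 largest rises and 12 largest falls among called genes without overlap; of each list, the 2 most abundant members and all called members were followed, and other genes are said where they were chosen after their values were seen. Members and lists were chosen with earlier results of these data known. DESeq2 1.42.0 and limma 3.58.1 were alternatives, with others that changed scaling, filter, block and libraries. A few genes are not reported here. The 24 columns of the other deposited tables were not used.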

Additional observations from a re-analysis of the deposited data

Results flagged for a closer look

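For 28 of the genes named here the T4 effect at 72 h differed from that at 6 h (edgeR contrast of effects, adjusted p from 4.3e-06 to 0.05). Over all genes tested, this difference was called for 9.08%. The 28 were taken from genes already called at 72 h, and the same 72 h values enter the contrast. Their count is therefore a description. The difference in log2 change, 72 h minus 6 h, was positive for these genes: 3.42 for IL7R, 1.25 for NUP62, 2.90 for DHRS2, 1.53 for GDF15, 2.89 for ANKRD1, 1.5 for TGFB2, 1.11 for SYNCRIP, 1.79 for MMP1 and 2.95 for CDK12. It was negative for these: -1.69 for CSF3, -3.81 for NR4A2, -1.69 for PTGES, -1.81 for S100A4, -1.45 for SCD, -1.74 for JUNB, -1.86 for DDIT4, -1.28 for MT1E, -1.38 for NFKBIA, -0.94 for KRT81, -0.84 for KRT19, -1.46 for COL6A1, -0.86 for ITGB4, -0.96 for OIP5-AS1, -0.94 for LGALS1, -1.45 for FADS1, -0.83 for FADS2, -1.21 for S100A6 and -1.14 for C11orf68.

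For 25 genes the effect at 72 h differed from that at 24 h (adjusted p from 0.00062 to 0.044, edgeR), as it did for 3.69% of all genes tested. The difference, 72 h minus 24 h, was positive for these genes: 2.90 for KRTAP2-3, 2.27 for MAP3K7CL, 2.35 for IL7R, 3.66 for DHRS2, 2.85 for AC006453.2, 2.66 for GLIPR1, 2.65 for ZDHHC24, 2.42 for HERC5, 2.34 for APLN, 1.46 for CTGF and 1.37 for ID3. It was negative for these: -1.84 for ORAI3, -1.42 for PTGES, -1.74 for SEMA3B, -1.89 for S100A4, -3.46 for EREG, -2.87 for TRAC, -2.80 for S100A3, -2.60 for FBLN1, -2.43 for AC127459.2, -1.12 for INSIG1, -0.89 for KRT19, -1.74 for ITGB4, -1.68 for OIP5-AS1 and -1.32 for SLCO4A1. Of them, AC006453.2, GLIPR1, ZDHHC24, HERC5, APLN, EREG, TRAC, S100A3, FBLN1 and AC127459.2 were chosen by the size of this difference, which is therefore a description. The others were taken from genes already called at 72 h, so their count is a description too. SLCO4A1 and C11orf68 were chosen after their values were seen, and SLCO4A1 overlaps an antisense gene, with strand use in counting not stated.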

How the results depend on the processing

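The count of 103 at 72 h rests on a spread estimated over 3 harvests, and depth leaves genes under about 10 CPM with few reads. That count was 48 with library totals alone in place of TMM, 184 with DESeq2, 21 with all 18 libraries, 31 with the same transcript version only, 0 with the 72 h libraries alone, 43 with those but without both numbered 2, 47 without both numbered 2, and 52 to 113 when 1 library was left out. The replicate block gave 147 within each harvest, 72 over all harvests and 93 at 72 h alone. Within each harvest it ended the calls of NR4A2, C6orf132 and CCDC9B among the called genes named here (adjusted p = 0.092, 0.072 and 0.067, edgeR). Among the genes followed through the other fits, the block over all harvests ended the calls of KRTAP2-3, SAA1, NR4A2, POLD4, JUNB, NFKBIA, SYNCRIP and KRT19, and the block at 72 h alone those of AP000864.1, KRTAP2-3, SAA1, IL7R, NR4A2, MT1E, SYNCRIP and ITGB4. Causes were not tested. Leaving out both libraries numbered 2, and the replicate block at 72 h alone, were chosen after seeing the data.

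The count for 72 h minus 6 h was 1273 with library totals, 1223 with the replicate block within each harvest, 461 with the same transcript version, and 301 to 765 with 1 library left out. That for 72 h minus 24 h was 715 with library totals, 1182 with no filter, 601 with DESeq2, 157 and 1319 with the replicate block over all and within each harvest, 7 with all 18 libraries, 1105 without both libraries numbered 2, and 77 to 979 with 1 left out. The median 72 h change of genes higher at 6 h was 0.47 with library totals, 0.053 with 18 libraries, 0.102 without both numbered 2 and 0.125 to 0.271 with 1 left out. For genes higher at 24 h it was 0.234 at an adjusted p under 0.01, 0.205 with 18 libraries, -0.235 without both numbered 2 and -0.277 to 0.197 with 1 left out. For genes lower at 6 h and at 24 h library totals gave 0.172 and 0.041, and 18 libraries gave -0.213 for those lower at 24 h. Site use had 1 call without both libraries numbered 2 and 0 to 1 with 1 left out. The difference in median distal share, in percentage points, ran from -1.55 to 1.19 with 1 library left out, and was 0.939 without T4 library 1, 0.44 without T4 library 3 and 1.19 without DMSO library 2. For single genes, 328 of the other values kept their side of the threshold and direction, 124 kept the direction alone and 0 turned it. These counts cover part of the values and are not totals over all fits, so they do not give the share of calls that held. A gene without an adjusted p in a fit was not counted. By fit, the followed genes that lost their call ran from 0 with median-of-ratios scaling to 41 with the 72 h libraries alone. They were 31 for all 18 libraries and 21 without both libraries numbered 2.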
